A study of Rattus norvegicus with 22 samples.

Results

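Epididymal fat of hypoxia exercise rats (FHE) was compared with epididymal fat of normoxia exercise rats (FCE) over the nuclear genes. FHE comprised 2 libraries, FHE2 and FHE3, from rats of the reduced oxygen arm that ran at 20 m/min. FCE comprised 3 libraries, FCE1, FCE2 and FCE3, from rats of the arm at 21% oxygen that ran at 25 m/min. Oxygen and running speed therefore cannot be told apart in this comparison. All were male Sprague Dawley rats with trophic obesity, bought at 3 weeks of age and fed a 60% high-fat feed for 8 weeks before 4 weeks of treadmill training, 60 min per session on 5 days per week. The rats had neither food nor drink for 12 h before tissue was taken, training began in the late afternoon, and the hour of killing per group is not given in the sources used here. The 5 libraries are 5 of 22 in the series, which also holds resting fat (2 libraries of hypoxic quiet rats, FH, and 3 of normoxia quiet rats, FC) and gastrocnemius muscle. The labels tie each library to a replicate number but not to an animal, so p-values measure the spread between these libraries. Of 32623 genes in the deposited table, 37 lie on the mitochondrial genome and were left out, and 16408 of the 32586 nuclear genes passed the filter on low counts and were tested.

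Epididymal fat is a visceral white depot in which adipocytes store triglyceride, secrete hormones such as leptin and adiponectin, and sit in a scaffold of collagens and other matrix proteins made largely by stromal cells. Low oxygen stabilizes hypoxia-inducible factors, which raise transcription of genes for glycolysis and vessel growth. Adipocytes also run a circadian clock, in which ARNTL (BMAL1) pairs with CLOCK or NPAS2 to drive their own repressors, and DBP and the REV-ERB proteins relay the rhythm to metabolic genes.

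Nuclear genes held 20060028 and 26279710 counts in FHE2 and FHE3, against 33044468 to 33429244 in FCE. Mitochondrial genes took 44.7% and 40.7% of all counts in FHE, against 14.3%, 22.6% and 10.1% in FCE, and the part of this difference in the nuclear results was not tested. The tissue label held: the 16 adipocyte markers were detected in all 5 libraries and summed to 54098 and 52778 CPM in FHE, against 45672 to 78573 CPM in FCE. CPM here are counts per 1000000 of the TMM-normalized nuclear library size and are not corrected for gene length. Some libraries carried RNA of other tissues. Over the 15 matched skeletal muscle fibre markers, of which 14 were tested, the sum was 20.6 CPM in FHE2 and 33617 CPM in FHE3, against 60.9, 1913 and 22.0 CPM in FCE1, FCE2 and FCE3. A set of 9 neural genes, chosen after their values were seen, summed to 120 and 116 CPM in FHE, against 1840, 146 and 219 CPM in FCE1, FCE2 and FCE3. Values without FHE3, FCE1 or FCE2 are given beside several of the results below. Of the resting libraries, FH3 stood apart: its adipocyte markers summed to 22121 CPM, against 59431 CPM in FH1 and 45485 to 71589 CPM in FC, and its T cell markers to 379 CPM, against 151 CPM in FH1 and 118 to 210 CPM in FC.

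In edgeR's quasi-likelihood test with Benjamini-Hochberg adjustment, 0 of 16408 genes passed an adjusted p of 0.05 (0%). The smallest adjusted p was 0.171, for Pnpla3. At an unadjusted p under 0.05, 760 genes were higher in FHE (4.63%) and 1050 were lower (6.4%). DESeq2 called 435 genes, 159 higher (1.07% of the 14826 genes with an adjusted p) and 276 lower (1.86%). The median log2 fold change over all genes was -0.04. Since no gene passed the main test, what follows are levels in each library and the count of genes whose 2 FHE levels both lay outside the range of the 3 FCE levels.

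Both FHE libraries lay above all 3 FCE libraries for 2309 genes (14.1%) and below all 3 for 2549 genes (15.5%), while the groups overlapped for 11550. On nuclear-rescaled TPM the counts were 1742 and 3015, so that 36.6% of the genes without overlap were higher, against 47.5% on CPM. TPM are also divided by gene length, but a length fixed per gene does not change the order of libraries for that gene. The source of the shift was not tested. A shared 2-fold difference, with both FHE libraries at least 2-fold from the FCE mean of logs and no overlap, was seen for 369 genes higher (2.25%) and 646 lower (3.94%). FHE2 alone was at least 2-fold above that mean for 1199 genes and FHE3 for 1414, and 445 were common, which is 37.1% of the FHE2 genes and 31.5% of the FHE3 genes. At least 2-fold below it were 2966 genes in FHE2 and 1558 in FHE3, and 903 were common, or 30.4% and 58.0%. The 2 libraries lay on the same side of the FCE mean for 65.4% of genes. A 2-fold difference in FHE2 but not FHE3 was seen for 754 genes higher and 2063 lower, and in FHE3 but not FHE2 for 969 higher and 655 lower.

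**Figure D1:**
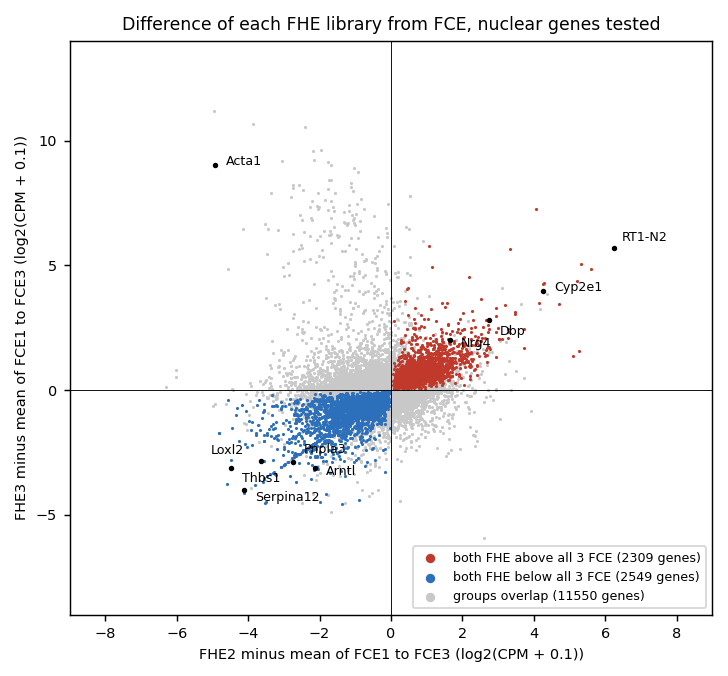
Each point is 1 of 16408 nuclear genes, with the difference of FHE2 (horizontal axis) and of FHE3 (vertical axis) from the mean of FCE1 to FCE3, both in log2(CPM + 0.1). Red genes (2309) lay above all 3 FCE libraries in both, blue genes (2549) below, and the grey cloud at the upper left holds genes high in FHE3 alone, such as Acta1 of muscle fibres.

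The 39 gene lists drawn up for the tissue and treatment differed widely in how many members both FHE libraries shared. Among those furthest below were collagens, with 12 of 16 members lower and a median log2 fold change of -1.42, and matrix proteins and enzymes, with 16 of 34 lower and a median of -1.04. Cell cycle genes had 11 of 18 lower (median -1.08) and heat shock genes 6 of 12 (median -0.61). On the other side stood cytosolic ribosomal proteins with 21 of 35 higher (median 0.65), mesothelial markers with 6 of 12 higher (median 1.69, and 3.14 without FCE2) and clock genes with 7 higher and 3 lower of 19 (median 0.85). The background over all tested genes is 14.1% higher and 15.5% lower. Lists such as endothelial markers (1 of 12 higher, 0 lower) and macrophage markers (0 of 18 higher, 1 lower) were under it in both directions. In bulk tissue, fewer cells of a type and less RNA per cell cannot be told apart.

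**Figure D2:**
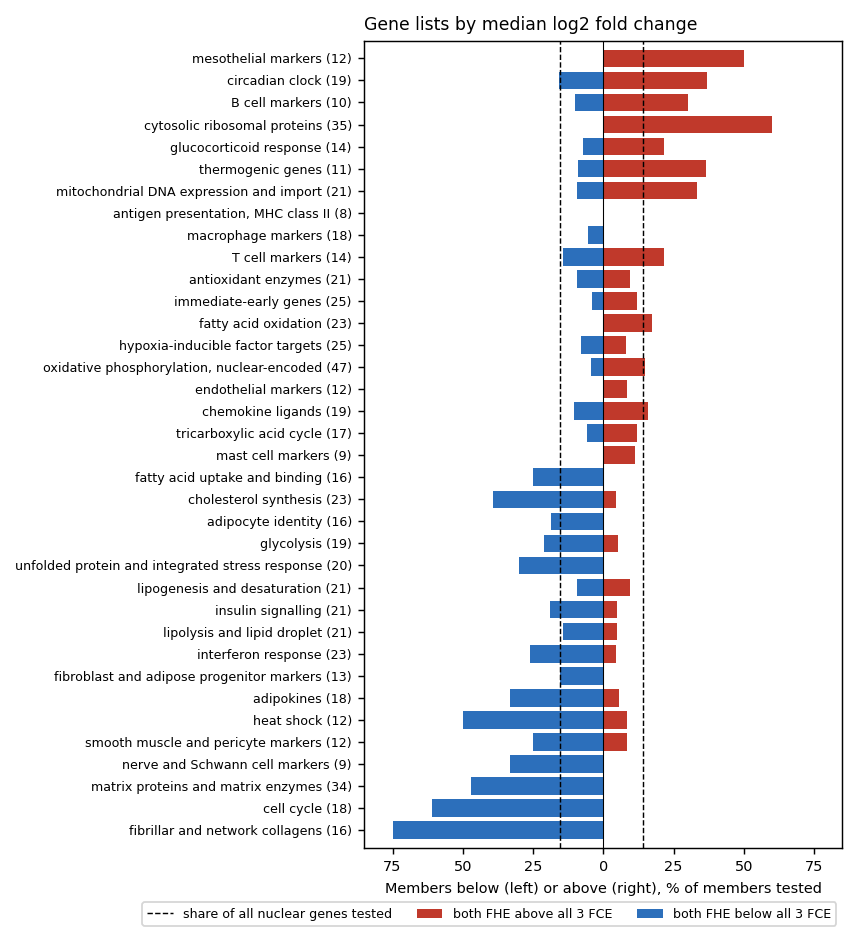
Share of tested members of each list with both FHE libraries above all 3 FCE libraries (red, to the right) or below all 3 (blue, to the left), in percent, with the number tested in brackets and lists ordered by median log2 fold change. Dashed lines mark the shares over all nuclear genes, 14.1% and 15.5%, and ribosomal proteins (60%) and collagens (75%) reach furthest to either side.

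Of the 19 clock genes, 7 were higher in both FHE libraries than in all 3 FCE libraries, 3 were lower and 9 overlapped. Dbp, a transcription factor of the clock output (chr1:101687855-101692846 in Ensembl release 99), was at 515 and 535 CPM in FHE, against 48.1, 150.1 and 64.3 CPM in FCE. Its log2 fold change was 2.58 (SE 0.50, adjusted p = 0.248; DESeq2 adjusted p = 0.000118), and the FHE levels were over 3 times the highest FCE level. Arntl was at 3.26 and 1.58 CPM in FHE, against 31.9, 6.26 and 15.5 CPM in FCE, with wide spread in FCE and a log2 fold change at -2.89 (SE 0.67, adjusted p = 0.293). Npas2, a partner of ARNTL, was at 3.57 and 1.38 CPM in FHE and 12.9, 20.3 and 20.1 CPM in FCE (log2 fold change -2.85, SE 0.50, adjusted p = 0.224). For all 3 of these genes, which the naming rule picked, the groups did not overlap and DESeq2 gave an adjusted p under 0.05.

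The other clock genes without overlap were chosen after their values were seen. Nr1d1, which encodes the repressor REV-ERB alpha, was at 313 and 454 CPM in FHE, against 108, 249 and 152 CPM in FCE (log2 fold change 1.17, adjusted p = 0.412). Its relative Nr1d2 was at 124 and 119 CPM in FHE, against 44.4, 71.5 and 59.4 CPM in FCE (log2 fold change 1.06). Tef, a relative of Dbp, was at 178 and 186 CPM in FHE, against 80.8, 137 and 85.7 CPM in FCE (log2 fold change 0.85). These 3 repressors and output factors were each tighter between the 2 FHE libraries than between the 3 FCE libraries on the log2 scale, in which FCE2 was the highest. Per2, a repressor of the ARNTL complex, was at 74.5 and 109 CPM in FHE and 15, 44.7 and 40.8 CPM in FCE (log2 fold change 1.46). Cry1, which acts with it, was at 17.2 and 20.6 CPM in FHE and 15.2, 5.77 and 11 CPM in FCE (log2 fold change 0.83). Nfil3, a repressor that competes with DBP, was at 6.47 and 7.31 CPM in FHE and 26.2, 10.7 and 16.1 CPM in FCE (log2 fold change -1.36). Clock, Per1, Per3, Cry2, Hlf, Bhlhe40, Bhlhe41, Ciart and Rora overlapped between the groups. The list median was 0.49 without FHE3 and 1.13 without FCE2.

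**Figure D3:**
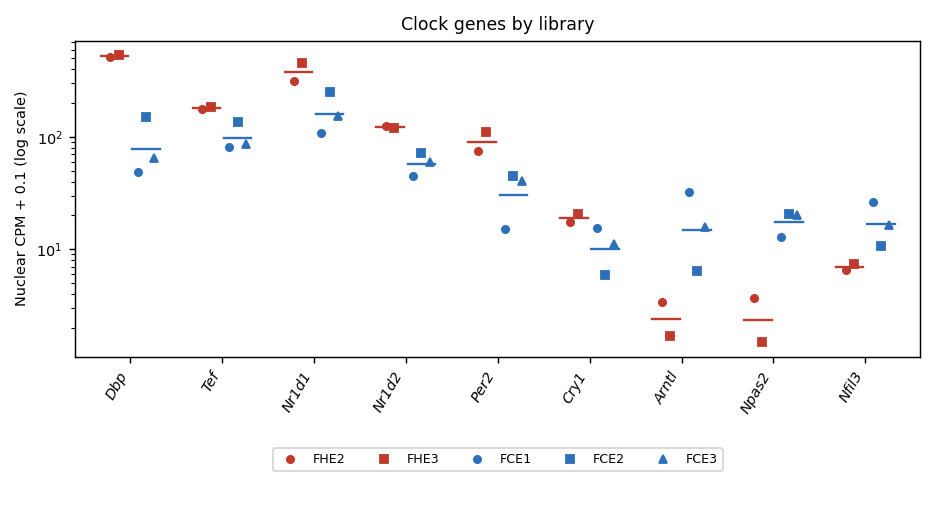
Nuclear CPM + 0.1 on a log axis for clock genes without overlap, FHE libraries in red on the left and FCE libraries in blue on the right of each gene, with a bar at the mean of logs. Dbp to Cry1 sit higher in both FHE libraries and Arntl, Npas2 and Nfil3 lower, for example 515 and 535 CPM in FHE against 48.1, 150.1 and 64.3 CPM in FCE for Dbp.

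The same clock genes can be set beside resting fat, which shares no library with this comparison. Dbp was at 297 and 201 CPM in FH, against 30.7, 51.7 and 22.7 CPM in FC, a log2 fold change of 2.83. Arntl was at 5.61 and 7.07 CPM in FH, against 41.2, 25.4 and 42.6 CPM in FC (-2.52). Npas2 was at 7.21 and 6.71 CPM in FH and 16.6, 11.9 and 23.9 CPM in FC (-1.33). The FH and FC libraries did not overlap for any of these 3 genes, and the direction was that of FHE against FCE. The median of the 19 clock genes was 1.06 in FH against FC and 0.85 in FHE against FCE, and edgeR called the interaction for no gene, DESeq2 for 36, none of them on the clock list.

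Promoters of the clock genes from RefSeq (build GRCr8, 250 bases before to 50 after the transcript start) were searched on both strands for 3 motifs, since regulators that bind them are themselves members of the list. These were the E-box CACGTG bound by ARNTL complexes, the D-box TTANGTAA bound by DBP and its relatives, and AGGTCA, the core of the site bound by REV-ERB receptors. The motifs do not overlap each other. Of 19 clock genes, 16 matched the table. The E-box occurred in 5 of them, against 6.42% of all 33469 promoters, the D-box in 1, against 2.24%, and AGGTCA in 2, against 16.2%. Of the 5 genes with an E-box, Bhlhe40, Bhlhe41 and Ciart overlapped between the groups. Promoters are shown for 5 genes described above, with the motif in capitals: the E-box in Nr1d1 (second start, chr10:84229405-84229704, minus strand) and Tef (chr7:115206577-115206876, plus strand), the D-box in Per2 (chr9:99496944-99497243, minus strand), and AGGTCA or its complement in Nr1d2 (chr15:9954784-9955083, plus strand) and Arntl (chr1:176766078-176766377, plus strand, Bmal1 in RefSeq).
Nr1d1: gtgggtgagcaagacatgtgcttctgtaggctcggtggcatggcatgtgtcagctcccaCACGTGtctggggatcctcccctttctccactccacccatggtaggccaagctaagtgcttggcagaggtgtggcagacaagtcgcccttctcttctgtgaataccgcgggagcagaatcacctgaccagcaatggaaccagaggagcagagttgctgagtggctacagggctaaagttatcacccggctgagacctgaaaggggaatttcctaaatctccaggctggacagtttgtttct
Tef: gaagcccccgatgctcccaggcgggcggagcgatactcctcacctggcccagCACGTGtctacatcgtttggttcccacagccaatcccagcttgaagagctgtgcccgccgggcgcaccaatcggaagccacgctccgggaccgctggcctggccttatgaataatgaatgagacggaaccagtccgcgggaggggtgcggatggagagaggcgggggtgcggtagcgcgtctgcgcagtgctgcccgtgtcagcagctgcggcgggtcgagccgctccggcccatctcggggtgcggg
Per2: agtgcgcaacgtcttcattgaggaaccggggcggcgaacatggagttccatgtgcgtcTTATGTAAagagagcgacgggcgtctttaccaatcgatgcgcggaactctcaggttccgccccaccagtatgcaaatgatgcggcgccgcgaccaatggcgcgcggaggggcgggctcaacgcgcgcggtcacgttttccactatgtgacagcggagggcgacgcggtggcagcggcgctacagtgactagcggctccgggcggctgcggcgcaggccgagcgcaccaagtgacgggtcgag
Nr1d2: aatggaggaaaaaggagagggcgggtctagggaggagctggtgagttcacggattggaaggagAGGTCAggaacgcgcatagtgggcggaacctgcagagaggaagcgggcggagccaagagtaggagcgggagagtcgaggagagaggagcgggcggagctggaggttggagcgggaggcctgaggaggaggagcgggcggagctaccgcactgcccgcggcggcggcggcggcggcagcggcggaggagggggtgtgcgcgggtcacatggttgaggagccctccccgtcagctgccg
Arntl: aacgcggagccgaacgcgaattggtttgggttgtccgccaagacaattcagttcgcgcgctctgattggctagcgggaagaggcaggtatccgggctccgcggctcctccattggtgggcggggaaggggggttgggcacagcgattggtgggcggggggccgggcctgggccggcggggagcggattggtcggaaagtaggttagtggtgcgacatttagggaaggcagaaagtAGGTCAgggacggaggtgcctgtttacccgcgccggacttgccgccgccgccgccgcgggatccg
The promoter windows of Dbp and Npas2 hold none of the 3 motifs. A match is a description of the letters, not a site or a cause.

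Of the 34 matrix genes, 16 were lower in both FHE libraries than in all 3 FCE libraries, 0 were higher and 18 overlapped. Thbs1, which encodes the matrix glycoprotein thrombospondin 1 (chr3:109862117-109873466), was at 7.54 and 19.3 CPM in FHE, against 192, 237 and 108 CPM in FCE (log2 fold change -3.73, SE 0.61, adjusted p = 0.224). Loxl2, an enzyme that crosslinks collagen, was at 5.55 and 9.72 CPM in FHE, against 52.1, 149 and 45 CPM in FCE (-3.42, SE 0.60, adjusted p = 0.224). In both genes the FHE and FCE levels were well apart, and FCE3 was the lowest FCE library. Sparc, a collagen-binding protein abundant in adipose tissue, was at 2425 and 2268 CPM in FHE and 14553, 11386 and 7052 CPM in FCE (-2.23, SE 0.52, adjusted p = 0.293). Serpinh1, the collagen chaperone HSP47, was at 587 and 459.6 CPM in FHE and 1065, 1382 and 963 CPM in FCE (-1.12). DESeq2 gave these 4 genes an adjusted p under 0.05. Fn1, fibronectin, chosen after its values were seen, was at 556 and 498 CPM in FHE, against 583, 3069 and 2025 CPM in FCE, where FCE1 lay close to the FHE levels.

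All 16 tested collagen genes had a negative log2 fold change, and 10 had a shared 2-fold difference against 3.94% of all genes. Col5a2, a fibrillar collagen chain, was at 55.1 and 67 CPM in FHE, against 201, 401 and 159.5 CPM in FCE (-2.06, SE 0.41, adjusted p = 0.248). Col4a2, of the basement membrane network, was at 135 and 204 CPM in FHE, against 793, 1634 and 441 CPM in FCE (-2.50). Col18a1, a basement membrane collagen, was at 146 and 136 CPM in FHE and 402, 576 and 372 CPM in FCE (-1.67), and Col16a1 at 16.8 and 19.1 CPM in FHE and 36.1, 73.3 and 39.6 CPM in FCE (-1.47). FCE2 was the highest library in all 4. Of the major fibrillar collagens, Col1a1 was at 429 and 476 CPM in FHE, against 639.7, 2557 and 873 CPM in FCE (-1.58, -0.74 without FCE2), and Col3a1 at 1369.8 and 1073 CPM in FHE, against 2093, 5680.2 and 2721 CPM in FCE (-1.52). DESeq2 called 7 of the 16 collagens lower, against 1.86% of all genes with an adjusted p. The collagens overlapping between the groups were Col6a1, Col6a2, Col6a3 and Col14a1.

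The collagen median was -0.99 without FCE2 and -1.65 without FCE1, and with FHE3 and FCE2 both left out it was -1.08. The matrix median moved to -0.74 without FCE2 and -0.66 with both out. With the Mt-atp6 share of mitochondrial counts (above 8% or not) as a batch term, the median was -1.57 for collagens and -0.90 for matrix genes. That share was 15.6% and 17.6% in FHE2 and FHE3, against 3.5%, 16.7% and 3.3% in FCE1, FCE2 and FCE3. Of FCE, only FCE2 was in the class of the FHE libraries, so the term is largely confounded with the comparison. The labels name no such batch. Fibroblast and adipose progenitor markers, the cells that make much of this matrix, had 2 of 13 members lower and a median of -0.44, and summed to 10285 and 8314 CPM in FHE, against 11197 to 13461 CPM in FCE. Of the 13 members, 5 had a positive log2 fold change. Dcn, a stromal proteoglycan chosen from these after its values were seen, overlapped between the groups (log2 fold change 0.42, and 0.02 without FCE1). At rest, collagens had a median of 0.00 in FH against FC, and Col1a1 was at 2112 and 1068 CPM in FH, against 502, 1472 and 905 CPM in FC. Gene length moved with direction as well: over 6 classes of length, the median log2 fold change of all genes was 0.06 in the shortest and -0.10 in the longest, which holds most of the collagens.

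**Figure D4:**
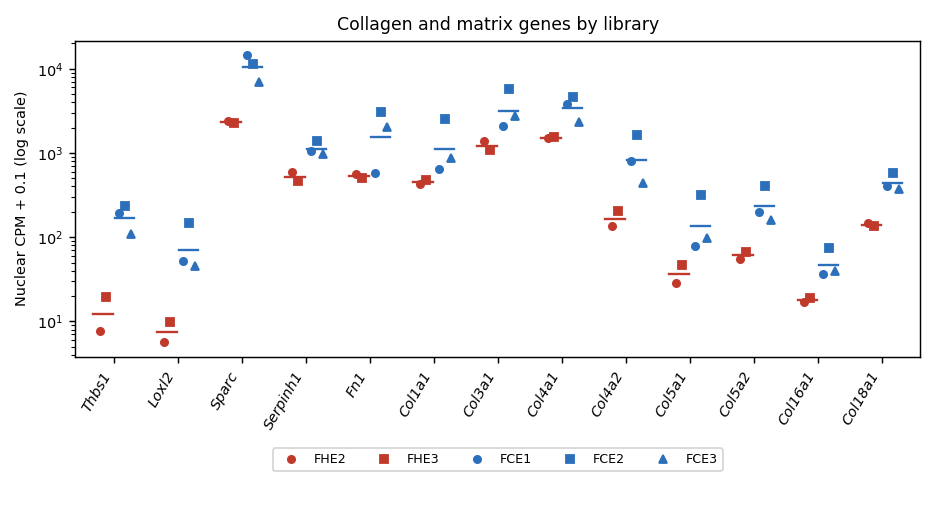
Nuclear CPM + 0.1 on a log axis for matrix and collagen genes, FHE libraries in red and FCE libraries in blue, with a bar at the mean of logs. Only genes lower in both FHE libraries than in all 3 FCE libraries were drawn. Of the full lists, 12 of 16 collagens and 16 of 34 matrix genes lay so. The closest approach among those drawn was at Fn1, where FHE2 was at 556 CPM and FCE1 at 583 CPM.

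Adamts5 and Adamts4 were chosen after their values were seen, and Mmp2 and Mmp14, the tested matrix metalloproteinases of the matrix list, overlapped between the groups. Adamts5, an aggrecan-cleaving protease, was at 9.98 and 10.3 CPM in FHE, against 39.1, 137 and 54.8 CPM in FCE (-2.92, SE 0.52, adjusted p = 0.224). Adamts4, its close relative, was at 10.6 and 9.29 CPM in FHE, against 46.8, 58.9 and 49 CPM in FCE (-2.37, SE 0.35, adjusted p = 0.2).

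Hormones secreted by fat split. Of 18 tested adipokine genes, 6 were lower in both FHE libraries and 1 was higher, with a median of -0.54. Serpina12 (vaspin) was at 0.357 and 0.395 CPM in FHE, against 5.84, 5.83 and 14.2 CPM in FCE (-4.50, SE 0.87, adjusted p = 0.248), a low level with fewer than 15 CPM in each of these 5 libraries. Rarres2 (chemerin) was at 81.7 and 97.9 CPM in FHE, against 345, 269.9 and 237 CPM in FCE (-1.66, adjusted p = 0.293), and Rbp4, the retinol carrier, at 831 and 869 CPM in FHE, against 2261, 2227 and 2675 CPM in FCE (-1.49, adjusted p = 0.371). Lep, leptin, was at 365 and 496 CPM in FHE, against 896, 1438 and 979 CPM in FCE (-1.36, SE 0.56, adjusted p = 0.423). Each of these had its higher FHE level below its lowest FCE level. The exception in direction was Nrg4, an EGF-family signal from brown and white adipocytes (chr8:59782974-59849490), at 23.7 and 30.7 CPM in FHE, against 6.84, 8.6 and 7.2 CPM in FCE (1.85, SE 0.37, adjusted p = 0.248). DESeq2 gave Serpina12, Rarres2, Rbp4 and Nrg4 an adjusted p under 0.05, and Lep 0.144.

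Genes that define the adipocyte mostly overlapped between the groups. Adipoq, adiponectin, was at 8965 and 9088 CPM in FHE, against 17108, 11166 and 8996 CPM in FCE (-0.46), so that FHE3 lay between FCE3 and FCE2. Fabp4, the adipocyte fatty acid carrier, was at 12484 and 12019 CPM in FHE, against 18198, 11688 and 9924 CPM in FCE (-0.12). Of the 16 markers, 3 were lower in both FHE libraries and 0 higher, with a median of -0.23 (0.08 without FCE1). The 3 were Lep, Lpl and Aqp7. Lpl, the lipase that frees fatty acids from circulating lipoproteins, was at 4848 and 4592 CPM in FHE, against 7324, 8589.6 and 8078 CPM in FCE (-0.76), and Aqp7, the glycerol channel, was at 354 and 310.0 CPM in FHE, against 1074, 668 and 637 CPM in FCE (-1.26). Slc2a4, the insulin-responsive glucose transporter GLUT4, overlapped at 116 and 198 CPM in FHE and 69.2, 131 and 121 CPM in FCE (0.55).

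In lipid turnover, single genes stood apart while the lists lay near the background. Pnpla3, a lipid droplet protein that is induced by feeding in rodents (chr7:125034764-125055976), was at 24.2 and 22.2 CPM in FHE, against 144, 162 and 187 CPM in FCE (-2.83, SE 0.33, adjusted p = 0.171). Its levels within each group were close, and it had the smallest p of all genes. It was also low at rest in hypoxia, at 58.3 and 46.2 CPM in FH, against 239.8, 240.0 and 130.2 CPM in FC (-1.96). Of the adrenergic receptors on the lipolysis list, Adrb1, which stimulates lipolysis, was at 0.662 and 1.15 CPM in FHE, against 4.88, 10.5 and 4.14 CPM in FCE (-2.83). Adra2c, an inhibitory alpha-2 receptor outside that list, was at 0.662 and 0.593 CPM in FHE, against 4.33, 6.69 and 12.5 CPM in FCE (-3.64). Both levels are those of scarce transcripts, and Adrb3, a beta receptor on the lipolysis list chosen after its values were seen, overlapped between the groups. The lipases that carry out lipolysis overlapped, with Pnpla2 (ATGL) at 2939.7 and 3669 CPM in FHE and 5699.9, 4325 and 2116 CPM in FCE (-0.29). Lipe, hormone-sensitive lipase, was at 2038 and 2172 CPM in FHE and 3086, 3149.9 and 1388 CPM in FCE (-0.27), again with overlap. Of 21 lipolysis and lipid droplet genes, 1 was higher and 3 were lower, with a median of -0.38.

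Klb, the co-receptor through which FGF21 acts on adipocytes, was at 0.357 and 0.356 CPM in FHE, against 7.84, 8.67 and 2.14 CPM in FCE (-4.11, SE 0.74, adjusted p = 0.224). Fatty acid synthesis overlapped: Fasn, fatty acid synthase, was at 958 and 799 CPM in FHE, against 442, 1351 and 320.1 CPM in FCE (0.32), and Scd, the desaturase, at 3827 and 3005 CPM in FHE, against 7791, 32115 and 2857 CPM in FCE (-2.06), with FCE2 far above the others and a value of -0.64 without it. The 21 lipogenesis genes had 2 higher and 2 lower (median -0.30). Acacb, which makes the malonyl-CoA that restrains fatty acid entry into mitochondria, was at 90.5 and 101 CPM in FHE, against 35.2, 57.5 and 23.4 CPM in FCE (1.31). Elovl5, an elongase of polyunsaturated fatty acids, was at 37.1 and 52.3 CPM in FHE, against 77, 154 and 78.6 CPM in FCE (-1.21).

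Cholesterol synthesis and its control had 9 of 23 genes lower and 1 higher, with a median of -0.21, and at rest the median was -0.74 in FH against FC (-0.35 without FH3). Insig1, a sterol sensor of the endoplasmic reticulum, was at 560.2 and 403 CPM in FHE, against 1078, 1208 and 1098 CPM in FCE (-1.23, SE 0.41, adjusted p = 0.372). Stard4, a sterol carrier, was at 2.09 and 2.61 CPM in FHE, against 7.22, 8.37 and 6.92 CPM in FCE (-1.67). Dhcr7, the enzyme of the last step, was at 29 and 24.4 CPM in FHE, against 95.3, 70.3 and 60.8 CPM in FCE (-1.50). All 3 lay below every FCE library in both FHE libraries. Hmgcs1, Idi1 and Fdft1, of the early pathway and chosen after their values were seen, overlapped between the groups.

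**Figure D5:**
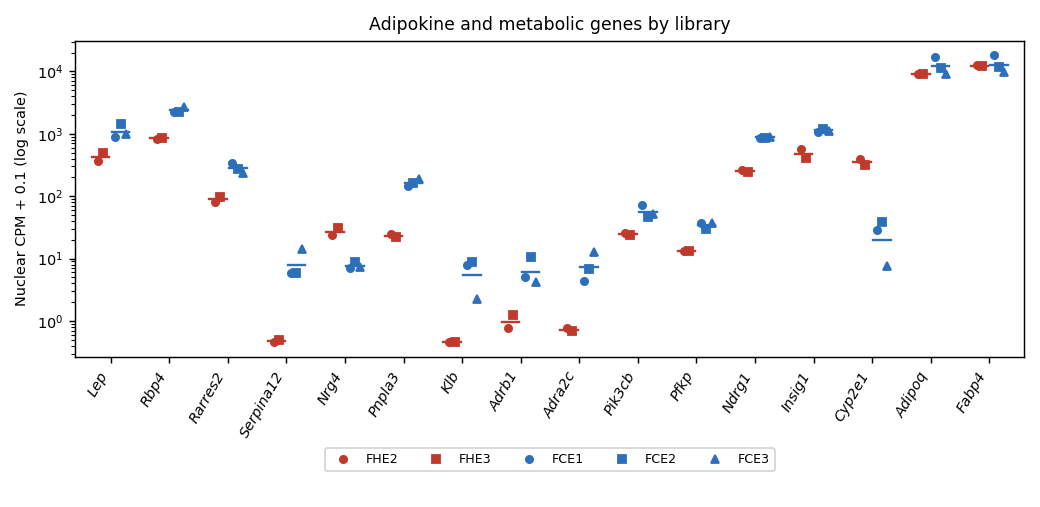
Nuclear CPM + 0.1 on a log axis for adipokine and metabolic genes, FHE libraries in red and FCE libraries in blue, with a bar at the mean of logs. Nrg4 and Cyp2e1 lie higher in both FHE libraries, the genes between Lep and Insig1 other than Nrg4 lie lower, and Adipoq and Fabp4 overlap.

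Targets of hypoxia-inducible factors did not stand apart from all genes, with 2 of 25 higher, 2 lower and a median of 0.01. Ndrg1, a stress-responsive gene induced by hypoxia in many cells, was lower, at 266 and 246 CPM in FHE, against 858, 869.5 and 893 CPM in FCE (-1.77, SE 0.40, adjusted p = 0.29). Car9, carbonic anhydrase 9, was higher but scarce, at 0.815 and 1.78 CPM in FHE, against 0.378, 0.461 and 0.057 CPM in FCE (2.12). Mxi1, a MYC antagonist, was at 96.5 and 91.8 CPM in FHE, against 68.5, 72.1 and 62.5 CPM in FCE (0.48). These members pointed in different directions. Vegfa, the vascular growth factor, overlapped at 91.4 and 136 CPM in FHE and 103, 121 and 96 CPM in FCE (0.09), as did Hif1a itself at 78.4 and 67.1 CPM in FHE and 74, 91.1 and 112 CPM in FCE (-0.34).

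In glycolysis, 1 of 19 genes was higher and 4 were lower (median -0.24). Pfkp, the platelet-type phosphofructokinase, was at 13.1 and 13 CPM in FHE, against 36.4, 30.2 and 37.6 CPM in FCE (-1.41, SE 0.23, adjusted p = 0.224), among the most even levels within groups. Hk1, a hexokinase, was at 20.8 and 26.7 CPM in FHE and 37.9, 53.4 and 32.2 CPM in FCE (-0.79). Slc16a3, a lactate exporter of glycolytic muscle fibres, was the member higher in FHE, at 2.55 and 23.9 CPM in FHE2 and FHE3, against 1.93, 2.21 and 1.69 CPM in FCE (2.77, 0.41 without FHE3). Insulin signalling had 4 of 21 genes lower and 1 higher (median -0.35). Pik3cb, the beta catalytic subunit of phosphoinositide 3-kinase, was at 25.6 and 24.1 CPM in FHE, against 70.9, 46.6 and 52.5 CPM in FCE (-1.19, SE 0.24, adjusted p = 0.248). Pik3ca, the alpha subunit, went the other way, at 119 and 84.6 CPM in FHE, against 66.2, 46.4 and 60.1 CPM in FCE (0.82). Grb14, an adaptor that inhibits the insulin receptor, was at 14.5 and 28.4 CPM in FHE, against 49.7, 62.8 and 43.8 CPM in FCE (-1.28).

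Of 47 nuclear-encoded oxidative phosphorylation genes, 7 were higher and 2 lower (median 0.01), and on nuclear-rescaled TPM 8 were higher and 8 lower. Against FCE2 and FCE3 alone, 22 of the 47 were higher and 2 lower, where 20.6% of all genes were higher. Genes for mitochondrial DNA expression and import had 7 of 21 higher and 2 lower (33.3% and 9.52%, median 0.29), and 10 higher without FCE1. Timm44, of the import motor, was at 85.4 and 77.4 CPM in FHE, against 61.8, 41.1 and 48 CPM in FCE (0.69), and Pdha1, of the pyruvate dehydrogenase complex, at 465 and 543 CPM in FHE, against 284, 342 and 214 CPM in FCE (0.85, DESeq2 adjusted p = 0.0476). Fatty acid oxidation had 4 of 23 higher and 0 lower (median 0.05), and 8 higher and 1 lower without FCE1. Ehhadh, of peroxisomal oxidation, was at 94.7 and 88.3 CPM in FHE, against 53.6, 58.1 and 41.6 CPM in FCE (0.84). Cpt1b, the muscle-type carnitine palmitoyltransferase, was at 35.9 and 109.8 CPM in FHE2 and FHE3, against 15.1, 25.2 and 17.9 CPM in FCE (1.91, 0.90 without FHE3). Ppargc1a, a coactivator of mitochondrial genes that muscle also expresses, was at 0.866 and 3.95 CPM in FHE2 and FHE3, against 0.413, 0.264 and 0.143 CPM in FCE (3.13, 1.68 without FHE3). FHE3, the library with the most muscle fibre transcripts, was the higher of the FHE libraries in both, and the part of muscle RNA in these 2 genes was not tested beyond that omission. Ucp1, the uncoupling protein of brown fat, did not pass the filter on low counts.

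Cyp2e1, Cbr1 and Hpd were among the 15 genes with the largest shared difference upwards. Cyp2e1, a cytochrome P450 of alcohol and ketone metabolism (chr1:213511874-213535542), was at 387 and 317 CPM in FHE, against 28.6, 37.8 and 7.37 CPM in FCE (3.84, SE 0.93, adjusted p = 0.295, DESeq2 adjusted p = 0.00113). Cbr1, a carbonyl reductase, was at 150.2 and 198 CPM in FHE, against 35.6, 28 and 47.9 CPM in FCE (2.23, SE 0.51, adjusted p = 0.29). Hpd, an enzyme of tyrosine breakdown, was at 15.4 and 20.1 CPM in FHE, against 4.06, 8.83 and 1.31 CPM in FCE (1.91). The FHE levels lay above every FCE level in each. The flavin monooxygenases Fmo1 and Fmo2, chosen after their values were seen, were at 225 and 218 CPM and 83.8 and 84.4 CPM in FHE, against 105, 94.7 and 31.2 CPM and 23.1, 37.6 and 29.2 CPM in FCE (1.53 and 1.49). At rest, Cyp2e1 was at 48.6 and 24.9 CPM in FH, against 19.8, 2.79 and 38.8 CPM in FC, an overlap, and Cbr1 at 143 and 38.2 CPM in FH, against 124, 88.1 and 62.2 CPM in FC, also an overlap.

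All 35 genes of cytosolic ribosomal proteins had a positive log2 fold change, and 21 were higher in both FHE libraries than in all 3 FCE libraries (60%, against 14.1% of all genes). Rps12, a protein of the small subunit, was at 900.0 and 521 CPM in FHE2 and FHE3, against 335, 169 and 379 CPM in FCE (1.27, SE 0.43, adjusted p = 0.378). Rps18 was at 1161 and 988 CPM in FHE, against 639.8, 459.8 and 529 CPM in FCE (0.98), and Rps27 at 1282 and 758 CPM in FHE, against 509.5, 294 and 546 CPM in FCE (1.18). In these 3 genes FHE2 was the higher of the FHE libraries, and FCE2 the lowest library. The list median of 0.65 was 0.37 without FHE2 and 0.99 without FHE3, and at rest it was 0.14 in FH against FC. Ribosomal protein genes are short and have many near-identical processed copies between which the authors' counting could split reads, so single levels are uncertain, and most members lie in the shortest of 6 length classes, in which 17.6% of all genes were higher. Rpl30 overlapped, at 169.8 and 81.1 CPM in FHE and 122, 108 and 101 CPM in FCE (0.18).

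Of 12 heat shock genes, 6 were lower in both FHE libraries and 1 was higher (median -0.61, and -0.31 without FCE1 and -0.34 without FCE3). Hsph1, a large chaperone of the HSP110 family, was at 34 and 43 CPM in FHE, against 158, 47.9 and 97.3 CPM in FCE (-1.39), and Hspa1a, the inducible HSP70, at 15.3 and 16.3 CPM in FHE, against 24.9, 20 and 178 CPM in FCE (-2.24), of which FCE3 was far above the rest, with a value of -0.51 without it. Of 20 genes that respond to unfolded proteins or integrated stress, 6 were lower and 0 higher (median -0.25). Pdia4, a disulfide isomerase, was at 84.2 and 74.9 CPM in FHE, against 141, 119 and 119 CPM in FCE (-0.67, SE 0.21, adjusted p = 0.369), and Hspa5, the chaperone BiP, at 186 and 241 CPM in FHE, against 359, 369 and 373 CPM in FCE (-0.78). Levels of both were even within groups. Cell cycle genes were scarce in all libraries: Top2a, a topoisomerase of dividing cells, was at 0.408 and 1.11 CPM in FHE, against 2.75, 5.24 and 4.46 CPM in FCE (-2.44), and Ccnb1, mitotic cyclin B1, at 0.255 and 0.316 CPM in FHE, against 1.38, 1.38 and 1.29 CPM in FCE (-2.22). None of the 18 cell cycle genes had an unadjusted p under 0.05.

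Markers of other cells differed in direction. Mesothelial markers are those of the thin cell sheet around the fat pad. The 13 matched ones, of which 12 were tested, summed to 153 and 103 CPM in FHE, against 65.2, 61.9 and 40.0 CPM in FCE. Upk1b, a tetraspanin of this layer, was at 30.6 and 17.3 CPM in FHE, against 0.516, 5.96 and 0.057 CPM in FCE (3.46, 6.41 without FCE2), and Msln, mesothelin, at 29.3 and 18.3 CPM in FHE, against 0.928, 16.1 and 0.171 CPM in FCE (2.05, 5.46 without FCE2). FCE2 was near the FHE levels for Msln, and 9 of the 12 markers had a positive log2 fold change. The median difference of the list from FCE was 2.44 on log2 CPM and 0.90 on log2 nuclear-rescaled TPM. At rest the mesothelial median was 4.99 in FH against FC, and 3.41 without FH3. Nerve and Schwann cell markers all had negative log2 fold changes (9 of 9, median -1.04, and -0.36 without FCE3), with 3 lower in both FHE libraries. Mbp, of myelin, was at 102 and 102 CPM in FHE, against 1189, 135 and 139 CPM in FCE (-2.25, -0.42 without FCE1), so that FCE1 alone was far above the rest. S100b, which adipocytes as well as Schwann cells express, was at 1724 and 2071 CPM in FHE, against 5988, 4249.8 and 3726 CPM in FCE (-1.29, -1.07 without FCE1). Immune lists were mixed: interferon response genes had 6 of 23 lower and 1 higher (median -0.40, against 1.17 in FH against FC, which was 0.31 without FH3). T cell markers had 3 of 14 higher and 2 lower (median 0.10). B cell markers had 3 of 10 tested higher and 1 lower (median 0.85). All 11 matched B cell markers summed to 30.5 and 24.0 CPM in FHE, against 8.04, 12.1 and 22.2 CPM in FCE.

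The largest shared differences by the naming rule, 15 in each direction, hold several genes tied to a single library. Of the 15 lower genes, Caly, Gfap, Dner, Ak7, Fbxo2, Syp, Gldn and Csdc2 had their highest level in FCE1, most of them genes known from nervous tissue. Gfap, the intermediate filament of astrocytes and glia, was at 0.306 and 0.632 CPM in FHE, against 393, 0.956 and 2.23 CPM in FCE (-8.10, -1.75 without FCE1). Caly, a neuronal endosomal protein, was at 0 CPM in both FHE libraries, against 30.1, 0.066 and 0.972 CPM in FCE, and was not tested without FCE1. The log2 fold changes of Dner, Ak7, Fbxo2, Syp, Gldn and Csdc2 were -6.92, -7.03, -4.97, -3.93, -4.71 and -4.32, and -4.31, -3.93, -2.74, -3.18, -2.92 and -1.72 without FCE1. Another 6 of the 15, which are Serpina12, Klb, Adra2c, Thbs1, Loxl2 and Pnpla3, kept log2 fold changes of -4.72, -3.91, -3.93, -3.68, -3.66 and -2.91 without FCE1.

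Of the 15 higher genes, Asb15 and Sbk2 were several times higher in FHE3 than in FHE2. Asb15, a gene of muscle, was at 2.44 and 12.4 CPM in FHE2 and FHE3, against 0, 0.56 and 0.143 CPM in FCE (4.97, 3.37 without FHE3). Sbk2 was at 2.24 and 11.8 CPM in FHE2 and FHE3, against 0.344, 0.758 and 0.257 CPM in FCE (3.94, 2.31 without FHE3). RT1-N2, a class I histocompatibility gene, had the largest shared size, at 26.6 and 18.2 CPM in FHE, against 0, 0.165 and 1.54 CPM in FCE (5.26, SE 1.41, adjusted p = 0.311). At rest it was at 0.091 and 0.189 CPM in FH and 1.31, 18.3 and 19.5 CPM in FC, so it was high in some FC libraries as well, and DESeq2 called its interaction. RT1-CE6, of the same family, was at 22.3 and 9.6 CPM in FHE, against 5.09, 1.78 and 1.14 CPM in FCE (2.58). RT1 genes are near-identical to one another and the counting could split their reads. Prf1, perforin of cytotoxic lymphocytes, was at 6.93 and 6.16 CPM in FHE, against 1.58, 1.22 and 1.43 CPM in FCE (2.21), with even levels within groups. The 15 also held Wfdc21 at 12.1 and 11.1 CPM in FHE, against 2.96, 3.13 and 0.543 CPM in FCE (2.40), Slc6a4, the serotonin transporter, at 10.9 and 8.97 CPM in FHE, against 0.584, 3.95 and 2.49 CPM in FCE (2.08), and Dnph1, a nucleotide hydrolase, at 5.4 and 5.61 CPM in FHE, against 1.31, 0.989 and 1.54 CPM in FCE (2.10).

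Whether FHE against FCE differs from FH against FC was asked with the interaction, the first difference minus the second. FHE and FCE rats also ran at different speeds, while FH and FC rats did not run. The interaction thus holds running speed as well as oxygen, and the 2 cannot be told apart. It called 0 of 16408 genes (0%), with 834 at an unadjusted p under 0.05, a smallest adjusted p of 0.953 and 36 genes called by DESeq2. FH against FC alone called 0 of 16408 genes (0%) in edgeR, with 772 at an unadjusted p under 0.05. DESeq2 was not run for FH against FC. Side by side, the medians of FHE against FCE and of FH against FC were -1.42 and 0.00 for collagens, -1.04 and -0.11 for matrix genes, -0.54 and -0.14 for adipokines and 0.65 and 0.14 for ribosomal proteins. They were 0.85 and 1.06 for clock genes and 1.69 and 4.99 for mesothelial markers. Cyp2e1 had 3.84 in FHE against FCE and 0.84 in FH against FC, Nrg4 had 1.85 and -0.01, and Pfkp had -1.41 and -0.04. Klb had -4.11 and -0.44. For these 4 genes edgeR called no interaction, while DESeq2 called that of Pfkp. Without FH3 the resting medians were 0.21 for collagens, -0.32 for matrix genes, 0.19 for adipokines, 0.41 for ribosomal proteins, 0.91 for clock genes and 3.41 for mesothelial markers.

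The 5 nuclear genes of highest mean CPM over these libraries were Car3, Fabp4, Adipoq, Scd and Cfd. The 5 largest nuclear genes of each library, which need not be these, took 6.63% and 6.79% of nuclear counts in FHE. In FCE they took 8.21%, 8.90% and 6.84%. Car3, carbonic anhydrase 3 of adipocytes, was at 27750.1 and 33710.0 CPM in FHE, against 32276, 30916 and 25669 CPM in FCE (0.05), and Cfd, adipsin, was at 10118 and 8293 CPM in FHE, against 11173, 10179 and 5327 CPM in FCE (0.05), with overlap in both.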

How the data were processed

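The series holds mRNA sequencing of 22 libraries, of which the 10 of epididymal fat entered the fit (2 FHE, 3 FCE, 2 FH and 3 FC). Per the submitters' processing notes and the paper's methods, a stranded mRNA kit was used, reads were checked and trimmed with FastQC and Trimmomatic, and HISAT2 aligned them to the rat genome of Ensembl release 99. The counting program and its strand setting are not given in the sources used here, so genes that overlap on opposite strands cannot be told apart. The authors deposited 1 table of read counts per gene, which carry no normalization, together with TPM, in which the authors divided by gene length and set each library to 1 total. The deposited FPKM columns were not used. Count totals ranged from 31449793 to 44334313 per fat library.

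Counts of nuclear genes were fitted in R 4.3.3 with edgeR 4.0.16 (TMM, filterByExpr by group, quasi-likelihood F test, 1 mean per group), so that all fat groups share 1 estimate of the spread, and p was adjusted by Benjamini and Hochberg over 16408 genes with a threshold of 0.05. DESeq2 1.42.0 was the other tool. A shared difference means that log2 CPM (TMM, prior count 2) of both FHE libraries lay outside the range of the 3 FCE libraries on the same side. Its size is the smaller of the 2 distances of the FHE libraries from the mean of the FCE logs. Figures were drawn with Python 3.11.15, pandas 2.3.3 and matplotlib 3.10.9.

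The comparison, the 39 gene lists (712 of 733 entries matched the table) and the rule for named genes were chosen with earlier results of these data known. The rule named up to 15 genes each way with the largest shared difference, an unadjusted p under 0.05 and at least 5 CPM in the higher group, muscle fibre markers left out, up to 4 members of each list with the smallest p, 21 fixed genes and the 5 of highest CPM. Some genes that the rule picked are not reported here. Any other gene is marked in the text as picked with its values in view. The alternatives were DESeq2, other size factors, filters and samples, a replicate block, the Mt-atp6 share as a batch term, other scales, and omission of each library in turn. FCE1 was left out of the lists and the shared counts as an alternative chosen after seeing the data, as was leaving out FH1 or FH3 for the list medians at rest.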

Additional observations from a re-analysis of the deposited data

How the results depend on the processing

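The count of 0 genes for FHE against FCE was 435 with DESeq2, 1 with the replicate number as a block and 4 with FHE3 and FCE2 left out together (Slc25a51, Plec, Vps25 and Rn50_1_0430.2). With 1 library left out it ranged from 0 to 14. The 14 came without FHE2, where FHE3 stands alone (all higher, among them the muscle genes Hrc and Murc). Without FHE3 it was 6, and without FC3 it was 1, Pnpla3. An omission that leaves 1 FHE library assumes that it varies like the other groups. The interaction count of 0 was 36 with DESeq2 and ranged from 0 to 6 with 1 library left out (6 without FHE3 and 1 without FH1). Same-numbered FHE and FCE libraries did not deviate together (r = -0.37 for number 2 and -0.19 for number 3, across genes), while the other 10 same-numbered pairs of fat libraries had r from -0.030 to 0.39, 9 of them above 0. Deviations were taken from group means and sum to 0 within a group, so these r are not separate observations. The labels give no shared animal or day, so the numbers were not taken as pairs. The replicate block raised the count of unadjusted p under 0.05 to 2473, against 1810.

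The count of genes without overlap, 4858 in all, was 2309 higher and 2549 lower on CPM, 1742 and 3015 on nuclear-rescaled TPM, 2346 and 2495 with RLE size factors, and 3373 and 3638 without FCE1 (20.6% and 22.2% of genes). Shared 2-fold differences were 76 and 220 on TPM, against 369 and 646. With a prior count of 0.5 in place of 2 they were 403 and 680 on CPM. These counts thus depend on the amount added before logs, and its part in the TPM counts was not tested.

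Of 104 genes given with values, 93 kept their direction in all 20 alternative fits, and 11 did not. With the Mt-atp6 share as a batch term, the log2 fold change was -0.92 for Cfd, -0.15 for Car3, -0.17 for Fasn and -0.070 for Rpl30. With the replicate block it was 0.17 for Fabp4, 0.19 for Pnpla2, 0.12 for Lipe and -0.087 for Vegfa. With FHE3 and FCE2 left out it was -0.040 for Car3, -0.10 for Vegfa and -2.98 for Acta1. With 1 library left out it ranged from -0.21 to 0.25 for Cfd, -0.29 to 0.18 for Fabp4, -0.075 to 0.19 for Car3, -0.60 to 0.038 for Pnpla2, -0.028 to 1.20 for Fasn, -0.21 to 0.35 for Vegfa, -0.44 to 0.64 for Rpl30, -9.13 to 10.31 for Acta1, -6.94 to 5.77 for Cox8b and -7.86 to 5.57 for Ckmt2. Of 39 list medians, 20 crossed 0 under at least 1 alternative. Besides the glucocorticoid, smooth muscle, erythroid and muscle fibre lists (values under the other observations), these included adipocyte identity (0.18 with the block), fatty acid oxidation and oxidative phosphorylation (-0.35 and -0.43 with the batch term) and T cell markers (-0.10 without FHE2). The cell cycle median of -1.08 was -0.70 without FCE2, and the nerve and Schwann cell median of -1.04 was -0.42 with the block. FHE2, with the fewest nuclear counts, sets the floor for scarce genes.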

Other observations

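The lists not described so far are read against the shares over all genes, 14.1% higher and 15.5% lower. Thermogenic genes had 4 of 11 higher and 1 lower with a median log2 fold change of 0.43 (0.12 without FHE3). Cox8b, a cytochrome oxidase subunit of muscle and brown fat, was at 0 and 26.4 CPM in FHE2 and FHE3, against 0, 1.45 and 0 CPM in FCE. Ckmt2, mitochondrial creatine kinase, was at 0 and 43.5 CPM in FHE2 and FHE3, against 0, 2.73 and 0 CPM in FCE. Both were read only in FHE3 and FCE2, the libraries with muscle fibre transcripts. Ucp3, an uncoupling protein of muscle and fat, was at 16.6 and 34.5 CPM in FHE, against 71.6, 50.4 and 37.3 CPM in FCE (-1.06). Fatty acid uptake and binding had 4 of 16 lower and 0 higher (median -0.11), among them Angptl4, an inhibitor of lipoprotein lipase, at 402 and 287 CPM in FHE, against 919, 863 and 516 CPM in FCE (-1.15). The tricarboxylic acid cycle had 2 of 17 higher and 1 lower (median -0.05), and antioxidant enzymes 2 of 21 in each direction (median 0.08). Glucocorticoid response genes had 3 of 14 higher and 1 lower (median 0.49, but -0.25 without FHE3 and 0.79 without FHE2), and immediate-early genes 3 of 25 higher and 1 lower (median 0.05).

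Among cells of the stroma and blood, smooth muscle and pericyte markers had 3 of 12 lower and 1 higher (median -0.71, but 0.26 with the Mt-atp6 share as a batch term). The 12 endothelial markers had a median of 0.01 and the 18 macrophage markers 0.21, and endothelial markers summed to 2062 and 1571 CPM in FHE, against 1609 to 1920 CPM in FCE. Mast cell markers had 1 of 9 higher and 0 lower (median -0.07), MHC class II genes 0 of 8 in either direction (median 0.24), and chemokine ligands 3 of 19 higher and 2 lower (median -0.03). Erythroid genes had 1 of 6 lower (median -0.36, but 0.26 without FCE3). Of the epididymal epithelium markers 2 of 8 matched genes were tested. All 8 summed to 1.83 and 1.26 CPM in FHE, against 2.01 to 3.37 CPM in FCE, so that RNA of the neighbouring organ was scarce in all 5 libraries. The 14 muscle fibre markers all had positive log2 fold changes (median 4.67), with 0 higher in both FHE libraries, and the median was -5.75 without FHE3.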
